A study of Mus musculus with 18 samples.

Results

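Spleens of ICR mice that had a high fat diet, STZ and AOS together (HS_AOS) were set against spleens of untreated control mice. The members are the 3 HS_AOS and 3 control libraries, which make up 6 of the 18 RNA sequencing libraries of the study. They were chosen by treatment label alone, and no expression value entered the choice. The 12969 genes that reached a deposited value of 1 in at least 3 of the 18 libraries were tested, of 19326 entries in the table.

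All mice were of the outbred ICR strain and 10 weeks old, and all groups are of 3 libraries of whole spleen. HS_AOS mice had the high fat diet, streptozotocin (STZ, which kills the insulin-producing cells of the pancreas) and AOS at 10 mg/kg; the labels give AOS as an abbreviation without its full name. The HS group had the diet and STZ without AOS, the AOS group had AOS at 10 mg/kg without diet or STZ, and the control group had none of these. The remaining groups had diet and STZ with a transfer of gut microbiota (FMT), labelled by AOS or control, and enter here mainly as further libraries that inform the spread. The comparison of HS_AOS with control thus spans diet, STZ and AOS at once, and their shares in a difference from control cannot be told apart within it. The sources used here do not give the dose of STZ, the length of the diet, the route of AOS or the blood glucose of the mice. Whether each library is a mouse of its own is left unsaid by the labels, and p-values here rest on library-to-library spread, which may be technical.

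The spleen filters blood through a red pulp rich in macrophages and red cell precursors, and houses B and T cells in its white pulp. Cells that receive more fatty acid than usual store it in lipid droplets and burn it in mitochondria, and the nuclear receptors of the PPAR family, which sense fatty acids, switch on genes of both routes. In diabetes and under a diet rich in fat the liver also releases ketone bodies, which other tissues use as fuel. The circadian clock is a loop of transcription factors whose output genes swing over the day.

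Values are in FPKM, which divides fragments by transcript length and by library total, a unit inferred from the values. Summed FPKM ran from 666441 to 831448 over the 18 libraries, and 12221 to 12898 genes reached 1 FPKM. The file holds no read counts, so the depth is unknown and low values carry no counting error here. B cell markers, a defining feature of spleen, summed to 2543, 3501 and 2361 FPKM in HS_AOS libraries 1, 2 and 3, against 1876, 2514 and 3213 FPKM in control libraries 1, 2 and 3. Several libraries stand apart from others of their group. Markers of pancreatic acinar cells took 3.65% of the summed FPKM of HS_AOS 1, and at most 0.414% in the other HS_AOS libraries and 0.333% in the control libraries. Neutrophil genes were far higher in control 1, and sperm genes in control 2, than in the other control libraries. The share of haemoglobin genes ran from 21.5% to 34.3% over the 6 libraries. The rank correlation across genes, which are not independent replicates, was 0.980 to 0.988 within HS_AOS, 0.950 to 0.978 within control and 0.964 to 0.979 between them.

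HS_AOS spleens had more transcript of genes that handle fatty acids (Acot1, Cpt1a and Plin2), of the clock repressor Nr1d1, of the cytochrome P450 Cyp1b1 and of the transcription factor Klf10 than control spleens. They had less of Oxct1, the enzyme that lets a cell burn ketone bodies, and of the smooth muscle genes Acta2 and Tagln. Kap, Prm1 and Tnp1 were at or near 0 in HS_AOS and at several FPKM or more in every control library. These 12 genes, 6 higher and 6 lower, were the ones that limma called at a Benjamini-Hochberg adjusted p below 0.05, and they are 0.0925% of the genes tested (0.0463% in each direction). At an unadjusted p below 0.05 there were 1016 genes (7.83%), of which 654 (5.04%) were higher and 362 (2.79%) lower. Of all genes tested, 57.6% had a positive change. The median change over all genes was 0.028 on the log2(FPKM + 1) scale, the scale of every log2 change below. On that scale the change of a gene with low values is understated.

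**Figure D1:**
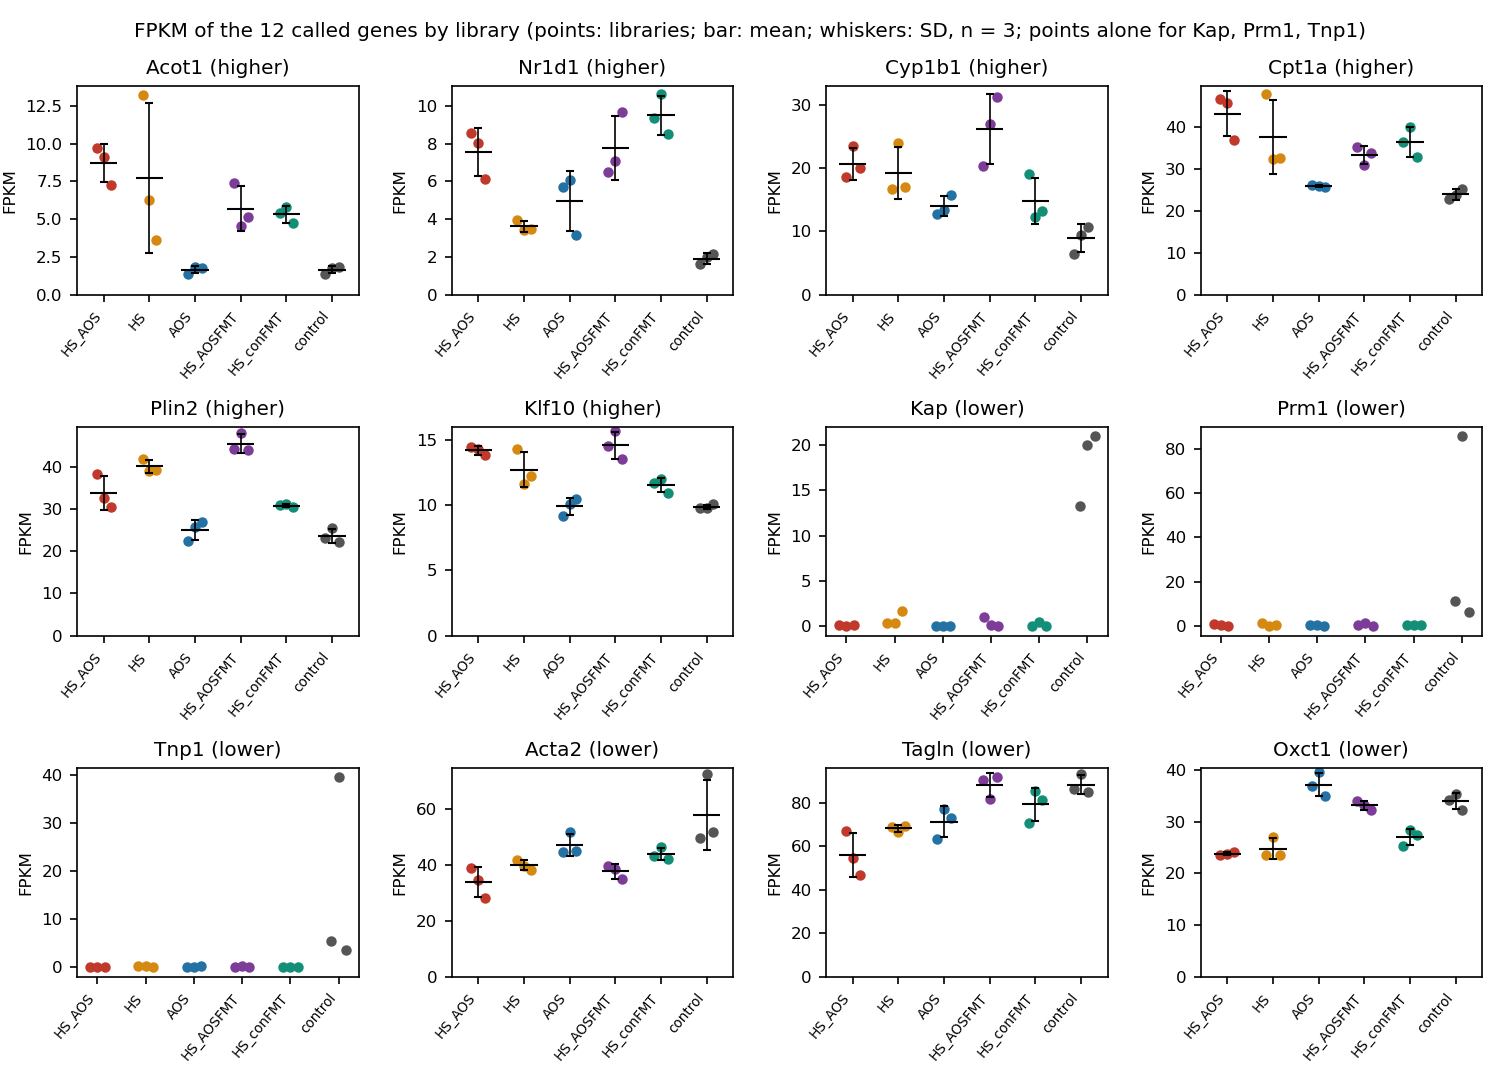
FPKM (linear axis) of the 12 called genes in all 18 libraries, by group, with HS_AOS at the left and control at the right of each panel. Points are libraries, the horizontal bar is the group mean and the whiskers are the SD (n = 3 libraries). Kap, Prm1 and Tnp1 are shown as points alone, and in each panel the 3 HS_AOS points lie apart from the 3 control points.

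The plot of FPKM by library shows that the HS_AOS and control values of all 12 called genes do not overlap, as was the case for 8.71% of all genes tested (5.69% higher and 3.02% lower). The count of 12 rests on single libraries. Without HS_AOS 1 it was 3, without HS_AOS 2 it was 2, without HS_AOS 3 it was 9, without control 1 or control 2 it was 6, and without control 3 it was 126 (39 higher and 87 lower, the 12 among them). Kap and Nr1d1 were called without any 1 of the 6 libraries. The other 10 lost the call without HS_AOS 2, and all of these but Tagln lost it without HS_AOS 1. Fitted to the HS_AOS and control libraries alone, limma called 5 genes, of which Kap, Nr1d1 and Acot1 were among the 12 and Npy and Zfp979 were not. No change of a called gene turned its direction in any setting run.

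**Figure D2:**
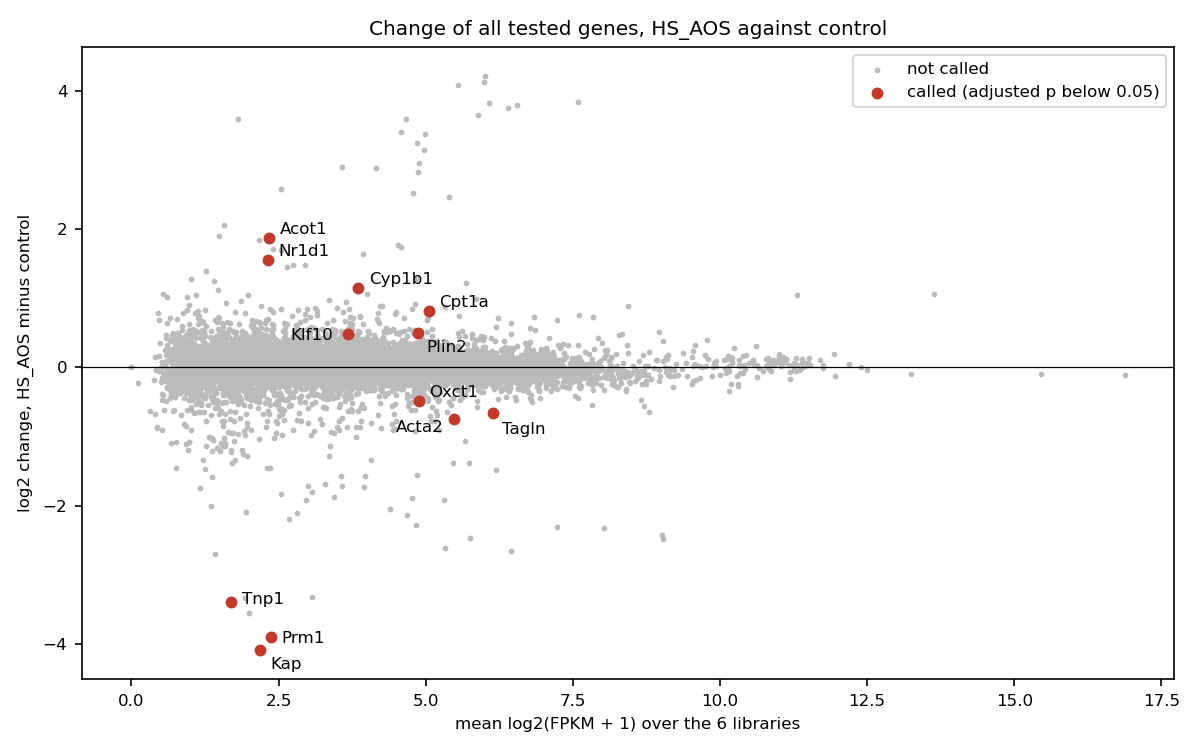
Log2 change of each of the 12969 tested genes (HS_AOS minus control, vertical axis) against its mean log2(FPKM + 1) over the 6 libraries (horizontal axis). Red points are the 12 called genes with their names and grey points the others, several of which lie as far from 0.

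The plot of change against level shows that size alone did not make a call. Genes with a change beyond 2 on the log2 scale include markers of pancreatic acinar cells above 0 and neutrophil genes below 0. For both kinds the levels also differed many-fold between libraries of 1 group.

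Among genes that handle fatty acids, Acot1 changed most. It encodes a cytosolic thioesterase that splits fatty acyl-CoA into fatty acid and coenzyme A, and it is a standard PPAR target in rodents (chromosome 12, 84009490 to 84018371, mm10). Acot1 was at 9.74, 9.15 and 7.29 FPKM in HS_AOS libraries 1, 2 and 3, against 1.39, 1.77 and 1.81 FPKM in control libraries 1, 2 and 3. Each HS_AOS library thus had several times the level of each control library. The means were 8.73 ± 1.28 FPKM in HS_AOS and 1.66 ± 0.232 FPKM in control (SD, n = 3 each), a 5.27-fold difference (log2 change 1.87, SE 0.28, limma, Benjamini-Hochberg adjusted p = 0.0258). With 1 library left out the adjusted p ran from 0.0141 to 0.142. Acot1 has a close paralog beside it in Acot2, and how the authors' counting treated reads shared by both is not stated. Acot2, its mitochondrial counterpart, stood at 7.67, 8.79 and 6.45 FPKM in HS_AOS libraries, against 3.98, 4.61 and 5.25 FPKM in control libraries, and was not called (log2 change 0.62, adjusted p = 0.17).

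Cpt1a encodes the outer mitochondrial membrane enzyme that loads long fatty acids onto carnitine, the gate to their oxidation (chromosome 19, 3322334 to 3385733). Its values were 46.8, 45.7 and 37.0 FPKM in HS_AOS libraries, against 22.8, 23.7 and 25.2 FPKM in control libraries. The lowest HS_AOS value lay well above the highest control value, and the spread within control was small. The means were 43.1 ± 5.37 FPKM in HS_AOS and 23.9 ± 1.20 FPKM in control, a 1.81-fold difference (log2 change 0.82, SE 0.13, limma, Benjamini-Hochberg adjusted p = 0.0265, and 0.0120 to 0.157 with 1 library left out). Plin2, which encodes the coat protein found on lipid droplets of most cells, lies on chromosome 4, 86648386 to 86670060. It was at 38.3, 32.6 and 30.4 FPKM in HS_AOS libraries, against 23.2, 25.5 and 22.2 FPKM in control libraries. This was a difference of 1.43-fold between means of 33.8 ± 4.05 FPKM in HS_AOS and 23.6 ± 1.70 FPKM in control, smaller than that of Acot1 or Cpt1a (log2 change 0.49, SE 0.087, adjusted p = 0.0426, and 0.0375 to 0.318 with 1 library left out).

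The stretches of 250 bases before the RefSeq start of these 3 genes (assembly GRCm38.p6) are shown because PPAR proteins bind paired copies of the half-site AGGTCA. Each reads 5′ to 3′ along the strand of its gene, and capitals mark a copy of the half-site, which lies on the opposite strand in both cases and so reads TGACCT. The window of Acot1 is chr12:84009252-84009501 on the plus strand, that of Cpt1a chr19:3323051-3323300 on the plus strand and that of Plin2 chr4:86670060-86670309 on the minus strand. The RefSeq starts differ from the GENCODE gene bounds given above, so the windows overlap those bounds, that of Cpt1a with its whole length.
Acot1: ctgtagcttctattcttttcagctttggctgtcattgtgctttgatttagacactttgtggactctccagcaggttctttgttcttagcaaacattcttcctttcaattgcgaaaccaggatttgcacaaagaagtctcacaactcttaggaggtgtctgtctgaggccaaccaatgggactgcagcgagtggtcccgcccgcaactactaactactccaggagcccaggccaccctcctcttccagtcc
Cpt1a: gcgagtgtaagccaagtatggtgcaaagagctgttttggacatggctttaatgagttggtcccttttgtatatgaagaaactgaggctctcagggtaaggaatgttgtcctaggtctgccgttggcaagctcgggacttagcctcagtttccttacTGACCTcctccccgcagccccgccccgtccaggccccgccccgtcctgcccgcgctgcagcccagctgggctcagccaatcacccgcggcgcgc
Plin2: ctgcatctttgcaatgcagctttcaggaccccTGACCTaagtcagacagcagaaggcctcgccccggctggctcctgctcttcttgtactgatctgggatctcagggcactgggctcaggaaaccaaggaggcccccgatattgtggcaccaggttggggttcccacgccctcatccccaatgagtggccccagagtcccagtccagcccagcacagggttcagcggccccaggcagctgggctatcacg
The half-site begins 94 bases before the start in Cpt1a and 218 bases before it in Plin2. These letters are not in the window of Acot1. Of all 32851 RefSeq windows of this length, 4607 (14%) hold AGGTCA on either strand. A direct repeat of the half-site with 1 base between its copies is in 11 windows (0.0335%), and none of the 3 windows shown holds it. A match is a description of the sequence and says nothing on binding.

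The wider list of PPAR targets and fatty acid oxidation genes had 19 of 23 members tested. Acot1 and Cpt1a were called higher and no member was called lower. The other members were not called, 17 of the 19 had a positive change and the median was 0.18, against 0.028 for all genes. Groups did not overlap for 10 members that were higher and 1 that was lower in HS_AOS, beside 5.69% higher and 3.02% lower over all genes tested. Angptl4, a secreted inhibitor of lipoprotein lipase and a PPAR target, was at 17.6, 19.0 and 13.0 FPKM in HS_AOS libraries and 8.13, 9.47 and 6.63 FPKM in control libraries (log2 change 0.94, limma, Benjamini-Hochberg adjusted p = 0.122). Ppara, which encodes the receptor itself, was below 1 FPKM in all 6 libraries.

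Most members of the lipid droplet list had negative changes, without a call. Of its 13 tested members (15 in the file) Plin2 was called higher and none was called lower, and 11 of the 13 had a negative change (median -0.20). Hilpda, which holds back the main triglyceride lipase of the droplet, was at 9.21, 9.72 and 8.47 FPKM in HS_AOS libraries and 5.69, 6.57 and 4.97 FPKM in control libraries (log2 change 0.59, limma, Benjamini-Hochberg adjusted p = 0.322). Dgat1, which makes triglyceride, and Abhd5, which activates its breakdown, had changes of -0.41 and -0.43 (adjusted p = 0.499 for both). Both were highest in control 1, at 14.4 FPKM. Adipocyte markers, a source of lipid droplet transcripts, had no call among 12 tested members and a median of -0.46. Adipoq, the fat cell hormone, was at 2.72, 4.24 and 1.39 FPKM in HS_AOS libraries, against 1.58, 9.81 and 9.13 FPKM in control libraries.

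Among ketone body genes 1 enzyme was called lower. Oxct1 encodes the mitochondrial transferase that activates ketone bodies for use as fuel, a step the liver lacks (chromosome 15, 4026383 to 4155344). It was at 23.6, 23.8 and 24.1 FPKM in HS_AOS libraries, against 34.2, 35.4 and 32.2 FPKM in control libraries. The HS_AOS libraries were nearly identical and all lay below every control library. The means were 23.8 ± 0.27 FPKM in HS_AOS and 33.9 ± 1.6 FPKM in control, so that control was 1.42-fold higher (log2 change -0.49, SE 0.07, limma, Benjamini-Hochberg adjusted p = 0.0154, and 0.00583 to 0.106 with 1 library left out). Bdh1, which interconverts the main ketone bodies, had 3.26, 2.90 and 2.21 FPKM in HS_AOS libraries and 3.45, 4.43 and 4.14 FPKM in control libraries (log2 change -0.41, limma, Benjamini-Hochberg adjusted p = 0.414). Of the 5 tested members, Oxct1 was called lower and none was called higher.

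Nr1d1 had the smallest adjusted p among the higher genes. It encodes REV-ERB alpha, a nuclear receptor that represses the clock activator Arntl and genes of lipid metabolism (chromosome 11, 98767932 to 98775333). Its values were 8.56, 8.04 and 6.12 FPKM in HS_AOS libraries, against 1.61, 1.99 and 2.13 FPKM in control libraries. All 3 control values lay far below the HS_AOS values. The means were 7.57 ± 1.29 FPKM in HS_AOS and 1.91 ± 0.269 FPKM in control, a 3.97-fold difference (log2 change 1.55, SE 0.18, limma, Benjamini-Hochberg adjusted p = 0.00241, and 0.00397 to 0.0289 with 1 library left out).

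Other clock genes were not called. Dbp, an output factor of the clock, was at 14.7, 16.01 and 10.3 FPKM in HS_AOS libraries and 4.89, 7.12 and 7.15 FPKM in control libraries (log2 change 0.98, limma, Benjamini-Hochberg adjusted p = 0.15). Nr1d2, the paralog of Nr1d1, had 12.7, 12.6 and 10.6 FPKM in HS_AOS libraries and 5.66, 8 and 10.3 FPKM in control libraries (log2 change 0.56, adjusted p = 0.372). Tef, an output factor related to Dbp, had a change of 0.43 (adjusted p = 0.421). In all 3 genes the HS_AOS values lay above the control values, with control 3 nearest to them in Nr1d2 and Tef. Groups did not overlap for 5 tested members of the clock list, all higher in HS_AOS, beside 5.69% higher over all genes tested. The clock list had 15 of 16 members tested, with Nr1d1 called higher, none called lower, 12 positive and a median of 0.091. The time of day at which the spleens were taken is not stated, so it cannot be told apart from the treatment.

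Cyp1b1 is a cytochrome P450 that oxidizes steroids, fatty acids and foreign compounds and is a target of the aryl hydrocarbon receptor (chromosome 17, 79701537 to 79715061). It was at 18.6, 23.5 and 20.0 FPKM in HS_AOS libraries, against 6.47, 9.44 and 10.8 FPKM in control libraries. Groups lay clearly apart, with means of 20.7 ± 2.5 FPKM in HS_AOS and 8.89 ± 2.20 FPKM in control, a 2.33-fold difference (log2 change 1.15, SE 0.20, limma, Benjamini-Hochberg adjusted p = 0.0426). The call held without control 3 and in none of the other 5 fits that left out 1 library (adjusted p from 0.0121 to 0.271). Of the 6 tested members of the aryl hydrocarbon receptor list Cyp1b1 was the only one called, and Cyp1a1, the classical target of that receptor, lay at or below 0.19 FPKM in all 6 libraries. A positive change was seen in 5 of the 6, beside 57.6% of all genes tested. Tiparp, another member, was at 8.76, 8.69 and 7.69 FPKM in HS_AOS libraries and 5.54, 5.4 and 8.46 FPKM in control libraries (log2 change 0.35, limma, Benjamini-Hochberg adjusted p = 0.523).

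Klf10 encodes a zinc finger transcription factor induced by TGF-beta (chromosome 15, 38291463 to 38300706). Its values were 14.4, 14.3 and 13.8 FPKM in HS_AOS libraries, against 9.77, 9.80 and 10.1 FPKM in control libraries. Within each group the values were almost equal. The means were 14.2 ± 0.327 FPKM in HS_AOS and 9.87 ± 0.154 FPKM in control, a 1.44-fold difference (log2 change 0.48, SE 0.08, limma, Benjamini-Hochberg adjusted p = 0.0325). The call held without control 3 and in none of the other 5 fits that left out 1 library (adjusted p from 0.0161 to 0.164).

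A pair of smooth muscle genes was called lower. Acta2 encodes smooth muscle actin (chromosome 19, 34241090 to 34255590), which in spleen is found in vessel walls, capsule and reticular cells. It was at 38.7, 34.6 and 28.0 FPKM in HS_AOS libraries, against 49.5, 72.5 and 51.6 FPKM in control libraries, of which control 2 was highest. The means were 33.8 ± 5.43 FPKM in HS_AOS and 57.9 ± 12.7 FPKM in control, with control 1.71-fold higher (log2 change -0.75, SE 0.13, limma, Benjamini-Hochberg adjusted p = 0.0426, and 0.0153 to 0.167 with 1 library left out). Tagln encodes transgelin, an actin-binding protein of the same cells (chromosome 9, 45929619 to 45936058). It had 66.8, 54.4 and 46.7 FPKM in HS_AOS libraries, against 86.5, 93.2 and 85.0 FPKM in control libraries. The means were 56.0 ± 10.2 FPKM in HS_AOS and 88.2 ± 4.37 FPKM in control, with control 1.58-fold higher (log2 change -0.66, SE 0.11, adjusted p = 0.0426, and 0.0130 to 0.191 with 1 library left out).

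Of the 9 tested smooth muscle genes (10 in the file) these were the only ones called lower, and none was called higher. The median was -0.39, 1 of the 9 had a positive change and 5 did not overlap between the groups, all lower, beside 3.02% of all genes tested. Actg2, the actin of visceral muscle, had 4.11, 3.63 and 3.57 FPKM in HS_AOS libraries and 5.24, 9.40 and 4.88 FPKM in control libraries (log2 change -0.61, limma, Benjamini-Hochberg adjusted p = 0.411). Cnn1, a calponin that restrains contraction, had a change of -0.47 (adjusted p = 0.421). The median of the list was -0.25 without HS_AOS 3 or without control 2, and -0.52 without HS_AOS 1. Stroma and matrix genes, a nearby population, had no call among 19 members and a median of -0.019. In whole tissue, fewer cells of a type and less RNA per cell cannot be told apart.

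**Figure D3:**
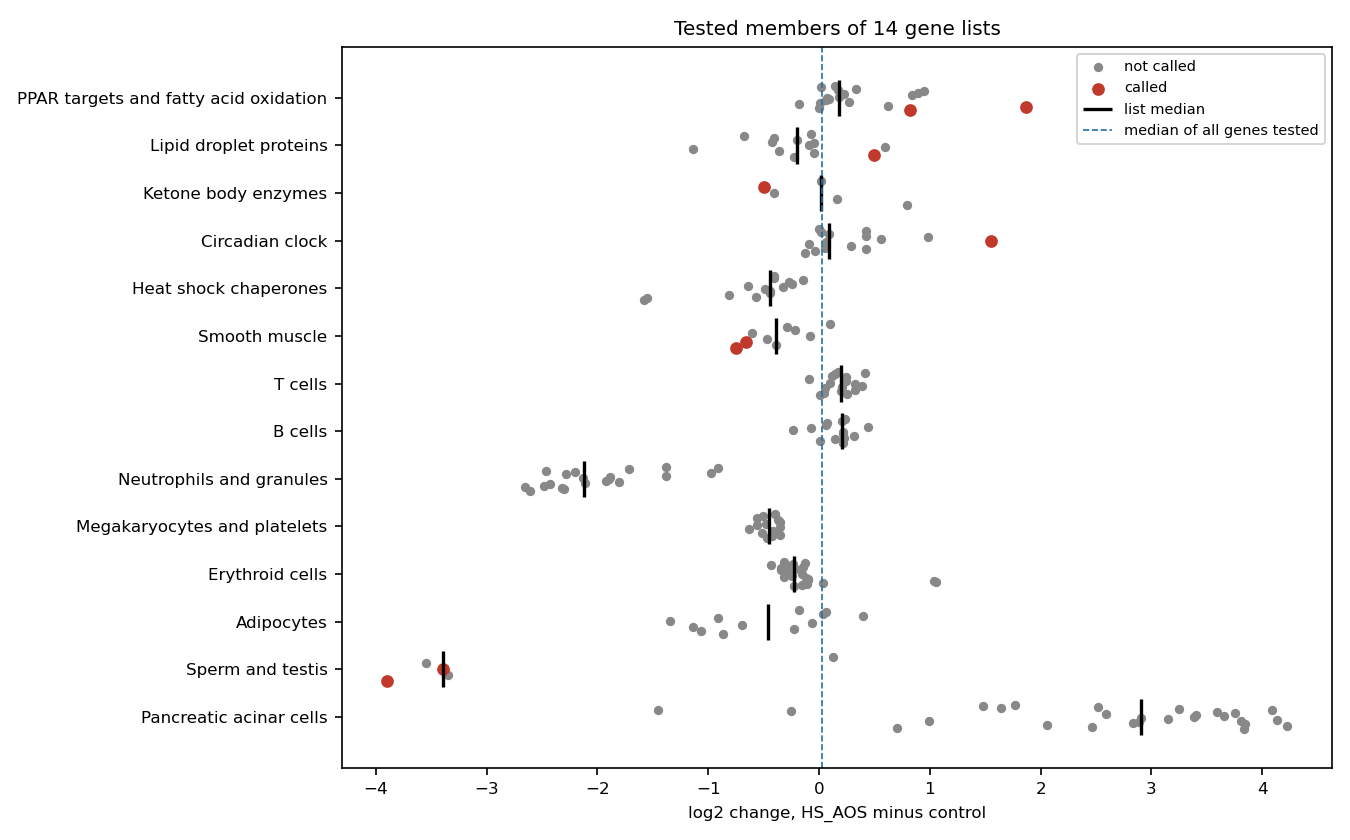
Log2 change (HS_AOS minus control, horizontal axis) of each tested member of 14 gene lists, one list per line. Red points are called members, grey points members not called, black bars list medians and the dashed line the median of all genes tested, and the called members stand in the lists of fatty acid, lipid droplet, ketone, clock, smooth muscle and sperm genes.

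The largest falls belonged to genes that were near 0 in all groups but control. Kap, an androgen-regulated transcript first known from kidney, lies on chromosome 6, 133849851 to 133853762. It was listed at 0.15, 0 and 0.15 FPKM in HS_AOS libraries, against 13.3, 20.1 and 21.0 FPKM in control libraries. Its highest value in any of the other groups was 1.67 FPKM, in HS 3 (log2 change -4.10, SE 0.28, limma, Benjamini-Hochberg adjusted p = 3.18e-06, and 9.97e-06 to 7.05e-05 with 1 library left out). Kap passed the filter on low values through the control libraries and HS 3, so a difference between groups was built into its being tested.

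Prm1 and Tnp1 encode a protamine and a transition protein, which pack the DNA of maturing sperm. Prm1 (chromosome 16, 10796326 to 10805839) was at 0.85, 0.31 and 0 FPKM in HS_AOS libraries, against 11.3, 85.6 and 6.56 FPKM in control libraries (log2 change -3.90, SE 0.66, limma, Benjamini-Hochberg adjusted p = 0.0426). Tnp1 (chromosome 1, 73015074 to 73015909) was listed at 0 in all 3 HS_AOS libraries, against 5.44, 39.5 and 3.47 FPKM in control libraries (adjusted p = 0.0279). Their relatives Prm2 and Tnp2 were not called (adjusted p = 0.0831 for Prm2 and 0.104 for Tnp2). Control 2 held by far the most of all 4 transcripts. The list of 12 sperm and testis genes summed to 4.28, 3.62 and 2.72 FPKM in HS_AOS libraries, against 37.8, 308 and 20.4 FPKM in control libraries. The 5 members that were tested include these 4, which passed the filter mainly through the control libraries, so their count is no support for a change of the list. Without control 2 all 4 were called, which for the same reason is no support either. The source of sperm transcripts in spleen libraries was not tested.

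HS and AOS each share the control libraries with HS_AOS, so the following changes against control are values side by side and not independent results. limma called 2 genes in HS against control (0.0154% of those tested) and 1 in AOS against control (0.00771%). Acot1 was at 13.2, 6.27 and 3.6 FPKM in HS libraries, and averaged 7.70 ± 4.98 FPKM in HS and 1.65 ± 0.236 FPKM in AOS, against 1.66 ± 0.232 FPKM in control, with changes of 1.56 in HS and -0.0038 in AOS. Cpt1a changed by 0.61 in HS and 0.11 in AOS, and Klf10 by 0.33 in HS and 0.0027 in AOS. Plin2 changed by 0.74 in HS, where it was called (limma, Benjamini-Hochberg adjusted p = 0.00205), and by 0.08 in AOS. Oxct1 changed by -0.44 in HS and 0.13 in AOS. In these 5 genes the HS mean lay nearer to that of HS_AOS and the AOS mean nearer to that of control, while single HS libraries of all of them but Plin2 lay between the HS_AOS and control values.

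The remaining called genes differed in this. Nr1d1 was at 3.94, 3.44 and 3.46 FPKM in HS and 5.68, 6.09 and 3.15 FPKM in AOS, both between the HS_AOS and the control values, with changes of 0.67 in HS and 1.00 in AOS. Cyp1b1 changed by 1.04 in HS and 0.62 in AOS, Acta2 by -0.50 in HS and -0.28 in AOS, and Tagln by -0.37 in HS and -0.31 in AOS. Kap changed by -3.50 in HS and -4.23 in AOS and was called in both (limma, Benjamini-Hochberg adjusted p = 2.97e-05 in HS and 2.00e-06 in AOS). Prm1 and Tnp1 were near 0 in both groups. The sum of the 12 sperm genes lay between 2.44 and 5.21 FPKM in all 15 libraries outside control.

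**Figure D4:**
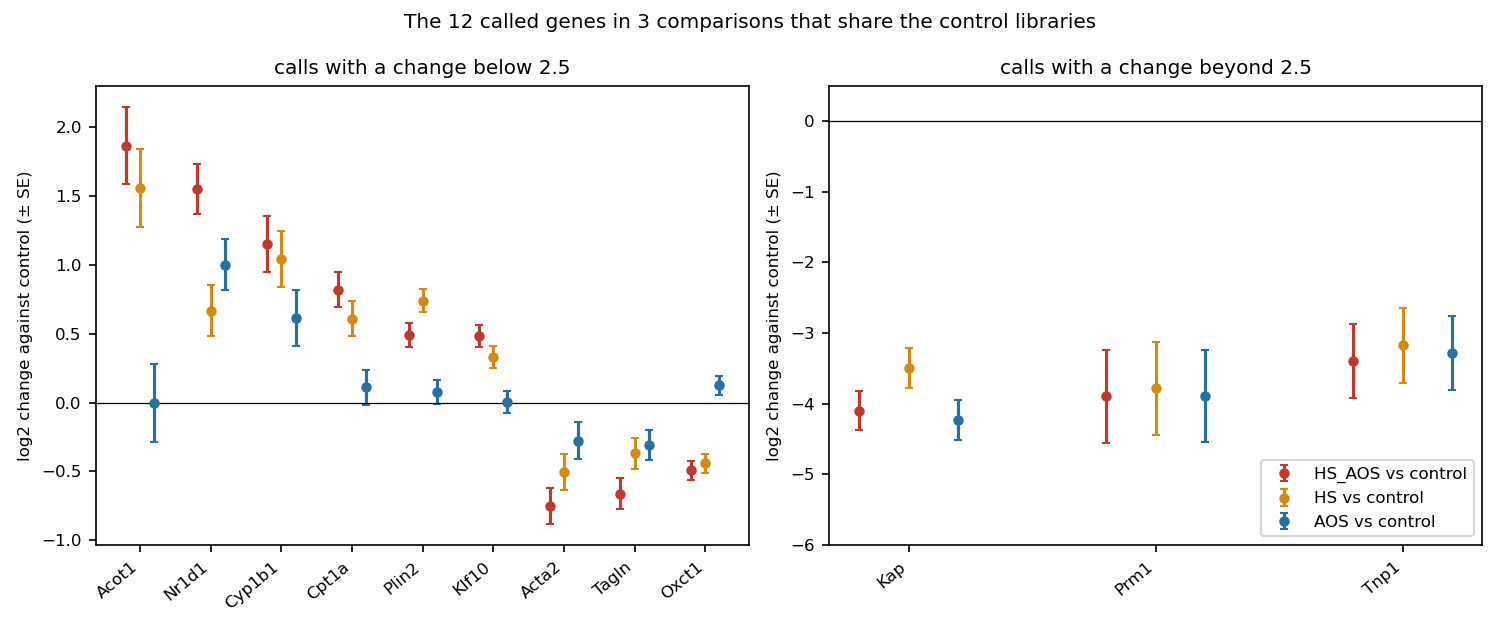
Log2 change against control with its SE for the 12 called genes in HS_AOS, HS and AOS (colours), with 9 genes in the left panel and Kap, Prm1 and Tnp1 on their own scale in the right panel. The comparisons share the 3 control libraries, and for Acot1, Cpt1a, Plin2, Klf10 and Oxct1 the AOS points lie near 0 while the HS points lie nearer to those of HS_AOS.

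The plot of the 3 comparisons also shows the gaps between HS_AOS and HS beside the errors of the changes against control. Set against its SE, the gap was large for Nr1d1 and small for Acot1. Tested directly, HS_AOS against HS gave no called gene in limma (674 with an unadjusted p below 0.05, smallest Benjamini-Hochberg adjusted p = 0.390). The difference was 0.88 (SE 0.18, adjusted p = 0.458) for Nr1d1, 0.31 (SE 0.28) for Acot1, 0.21 for Cpt1a and -0.25 for Plin2 (adjusted p = 0.827). A miss of the threshold does not show that HS_AOS and HS are alike. Without HS 1 there were 3 calls, Hspe1, Mrps6 and Plod1, all lower in HS_AOS.

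HS_AOS against AOS gave 5 called genes (0.0386% of those tested), 3 higher (0.0231%) and 2 lower (0.0154%). Acot1 (log2 change 1.87, limma, Benjamini-Hochberg adjusted p = 0.0337) and Klf10 (0.48, adjusted p = 0.0485) were higher and Oxct1 was lower (-0.62, adjusted p = 0.00268). Cyp4b1, a cytochrome P450 whose family includes fatty acid hydroxylases, was also higher (chromosome 4, 115624725 to 115647723). It was at 9.26, 13.1 and 12.3 FPKM in HS_AOS libraries, against 4.18, 4.47 and 4.40 FPKM in AOS libraries, and at 6.91, 5.73 and 8.41 FPKM in control libraries (log2 change against AOS 1.22, SE 0.18, adjusted p = 0.0337). Hsp90b1, the HSP90 chaperone of the endoplasmic reticulum, was lower (chromosome 10, 86690209 to 86705509). It was at 292, 271 and 252 FPKM in HS_AOS libraries, against 549, 440 and 603 FPKM in AOS libraries, and at 250, 350 and 314 FPKM in control libraries (log2 change against AOS -0.95, SE 0.15, adjusted p = 0.0485). For Cyp4b1 the control values lay between the AOS and HS_AOS values, and for Hsp90b1 they overlapped those of HS_AOS. Without HS_AOS 2, HS_AOS 3, AOS 1 or AOS 3 a single call was left, without HS_AOS 1 there were 2, and without AOS 2 there were 5.

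The interaction asks whether the joint exposure departs from the sum of diet with STZ and of AOS on the log2 scale. limma called 1 gene, Kap (0.00771% of those tested), and 774 genes had an unadjusted p below 0.05. Its interaction term was 3.63 (SE 0.40, Benjamini-Hochberg adjusted p = 0.00195). Kap was near 0 in HS_AOS, HS and AOS alike, and the highest of those 9 values was 1.67 FPKM. A transcript near 0 in HS cannot fall further in HS_AOS, and Kap was tested only through its control values and HS 3. The term therefore cannot tell whether AOS interacts with diet and STZ. With a pseudocount of 0.1 the interaction had no call.

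Neutrophil genes had lower values in HS_AOS than in most control libraries, without a call and with 1 control library far above the rest. The list, of which all 20 members were tested, summed to 687, 1000 and 770 FPKM in HS_AOS libraries, against 17109, 4712 and 926 FPKM in control libraries. Control 3 lay within the HS_AOS range and control 1 at many times that range. All 20 had a negative change and an unadjusted p below 0.05, 6 of them did not overlap, and over all genes tested the shares on the lower side were 2.79% and 3.02%. The median was -2.12, with -1.15 without control 1 and -3.06 without control 3. Mmp9, a gelatinase stored in neutrophil granules, was at 2.78, 3.67 and 4.11 FPKM in HS_AOS libraries and 41.3, 13.4 and 5.38 FPKM in control libraries (log2 change -1.81, limma, Benjamini-Hochberg adjusted p = 0.326). Ly6g, a surface marker of mouse neutrophils, was at 1.74, 2.67 and 1.65 FPKM in HS_AOS libraries and 41.3, 12.3 and 3.61 FPKM in control libraries (log2 change -2.20, adjusted p = 0.336). Cxcr2, their chemokine receptor, had a change of -0.97 (adjusted p = 0.333). Of the 20 members only Mmp9, Ly6g, Cxcr2 and Pglyrp1, the 4 with the smallest p, were followed gene by gene with libraries left out. All 4 were called without control 3, where neutrophil genes were lowest in the group. Leaving out the control library nearest to HS_AOS favours such calls, so they are no support for a difference. The median was -1.02 in HS and -1.84 in AOS, both against the same control.

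Megakaryocyte and platelet genes followed control 1 as well. They summed to 870, 1134 and 881 FPKM in HS_AOS libraries, against 2267, 1198 and 908 FPKM in control libraries. None of the 14 members was called, none had a positive change and the median was -0.45, which was -0.084 without control 1. Gp6, the platelet receptor for collagen, was at 9.39, 9.14 and 9.20 FPKM in HS_AOS libraries and 22.5, 11.8 and 12.2 FPKM in control libraries (log2 change -0.63, limma, Benjamini-Hochberg adjusted p = 0.456). Erythroid genes had no call among 24 members and a median of -0.22, and cell division genes had no call among 24 members and a median of -0.18.

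**Figure D5:**
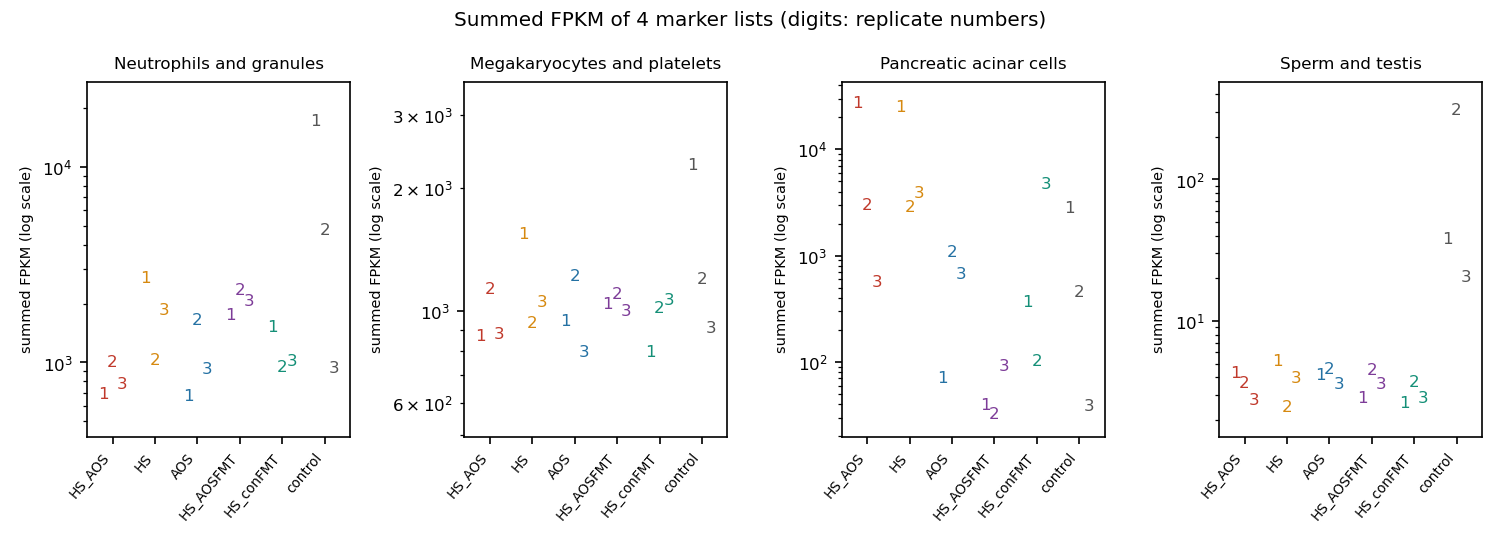
Summed FPKM (log axis) of 4 marker lists in each of the 18 libraries, by group, with HS_AOS at the left and control at the right. Digits are the replicate numbers, and control 1 stands highest for neutrophil and platelet genes, control 2 for sperm genes and HS_AOS 1 for acinar genes.

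Acinar genes of the pancreas, which lies against the spleen, varied most between libraries, as the plot of marker sums shows. They summed to 27093, 2973 and 561 FPKM in HS_AOS libraries, against 2769, 451 and 38.5 FPKM in control libraries. HS_AOS and control thus overlap over a wide range. None of the 27 tested members (29 in the file) was called, and the median of 2.90 was 1.47 without HS_AOS 1 and 4.27 without HS_AOS 3. The median was 3.89 in HS and -0.03 in AOS, both against the same control. Genes of pancreatic islets lay below 1 FPKM in all 6 libraries for all 10 members. With HS_AOS 1, HS 1 and control 1 set aside, limma called 7 genes in HS_AOS against control, 5 of them among the 12 (Kap, Acot1, Cpt1a, Acta2 and Tagln). Nr1d1 was not called there (log2 change 1.39, Benjamini-Hochberg adjusted p = 0.081), the one setting run in which it lost its call. With HS_AOS 1 and control 2 set aside limma called 8, of which 6 were among the 12. The part of pancreatic or sperm RNA in other differences was not tested.

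Lymphocyte and macrophage markers gave no call. Counts of positive members here and in the lists below stand beside 57.6% positive over all genes tested. T cell genes summed to 713, 701 and 619 FPKM in HS_AOS libraries, against 440, 682 and 757 FPKM in control libraries, with 17 of 18 members positive and a median of 0.20 that turned to -0.065 without control 1. B cell genes had a median of 0.21 (12 of 14 positive), which was 0.01 without control 1 and 0.03 without HS_AOS 2. Plasma cell genes had a median of 0.27 (11 of 12 positive), against 0.92 in AOS, and dendritic cell genes one of 0.27 (11 of 13 positive). Red pulp and marginal zone macrophage genes had a median of 0.14 (12 of 15 positive), and genes of NK and cytotoxic cells one of 0.005 (6 of 12 positive). Marco, a scavenger receptor of marginal zone macrophages, was at 59.7, 62.1 and 51.5 FPKM in HS_AOS libraries and 32.6, 37.1 and 51.7 FPKM in control libraries (log2 change 0.52, limma, Benjamini-Hochberg adjusted p = 0.549). Tbx21, the transcription factor T-bet of type 1 lymphocytes, was at 11.5, 9.25 and 7.07 FPKM in HS_AOS libraries and 3.91, 6.35 and 4.82 FPKM in control libraries (log2 change 0.77, adjusted p = 0.343).

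Stress and signalling lists also held no call. All 14 heat shock chaperone genes had a negative change, with a median of -0.44 that lay between -0.74 without control 1 and -0.31 without control 3. Their sum was 1968, 1769 and 2302 FPKM in HS_AOS libraries, against 1734, 2819 and 3813 FPKM in control libraries, so the groups overlap. Hspe1, the mitochondrial co-chaperonin, was at 156, 155 and 181 FPKM in HS_AOS libraries and 201, 246 and 223 FPKM in control libraries (log2 change -0.44, limma, Benjamini-Hochberg adjusted p = 0.51). The same list had a median of 0.31 in HS and -0.21 in AOS against control. Genes of the unfolded protein response had a median of -0.052 (8 of 17 positive), against 0.30 in HS and 0.40 in AOS.

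Interferon response genes were positive in 16 of 17 members with a median of 0.37, which was -0.03 without HS_AOS 3 and 0.74 in AOS. Glucocorticoid responsive genes had a median of 0.17 (9 of 14 positive), and Ddit4, a stress-induced inhibitor of mTORC1, was at 39.3, 48.2 and 33.9 FPKM in HS_AOS libraries and 16.5, 28.0 and 31.7 FPKM in control libraries (log2 change 0.69, limma, Benjamini-Hochberg adjusted p = 0.373). NF-kB targets had a median of 0.24 (10 of 12 positive). Il1b, the cytokine interleukin 1 beta, was 1 of the 2 members with a negative change. It was at 11.2, 11.7 and 18.5 FPKM in HS_AOS libraries and 25.3, 17.8 and 24.2 FPKM in control libraries (log2 change -0.68, adjusted p = 0.411). Tnf, 1 of the 10 positive members, was at 8.39, 8.44 and 6.96 FPKM in HS_AOS libraries and 5.63, 5.84 and 5.26 FPKM in control libraries (log2 change 0.44, limma, Benjamini-Hochberg adjusted p = 0.514). Cholesterol synthesis genes had a median of -0.13 (4 of 19 positive), antioxidant genes one of -0.12 (6 of 15), glycolysis genes one of -0.15 (3 of 15) and insulin and IGF signalling genes one of 0.12 (11 of 14). Targets of p53 had a median of 0.19 (9 of 13 positive), immediate early genes one of 0.027 (8 of 15) and endothelial genes one of 0.12 (10 of 12). Haem synthesis genes were positive in 1 of 10 members, and neither the 8 mesothelial nor the 2 tested skeletal muscle genes held a call.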

How the data were processed

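RNA sequencing of whole spleen gave 1 table of 19326 gene symbols by 18 libraries. Per the submitters' processing notes, Bowtie 0.12.2 and the build mm10 were used; the sources used here name no gene counter, annotation, filter or strand setting. Values deposited by the authors are taken to be FPKM. The file does not name the unit, but the totals differ between libraries (coefficient of variation 6.14%), and totals weighted by GENCODE M21 transcript length (97.1% of entries matched) vary by 1.29%. For 3 symbols that stand on a pair of lines, both lines were kept. Absolute depth is unknown, and steps between low values put relative depth at 0.953 to 1.06 from 2731 genes (steps within a band of 1.4).

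Genes with a value of at least 1 in at least 3 libraries were kept (12969). With limma 3.58.1 (R 4.3.3), a model with 1 mean per group was fitted to log2(FPKM + 1) of the 18 libraries. eBayes was run with trend and robust, which left 12 residual and 3.38 prior degrees of freedom, and the fit was checked on simulated data. Tests were two-sided, Benjamini-Hochberg adjusted over all 12969 genes, with a threshold of 0.05. The contrasts were HS_AOS against control, HS and AOS, and the interaction, with HS and AOS against control as values beside them. Groups came from the treatment labels, which give no batch. The text names called genes whose groups do not overlap (up to 15 per direction) and, from each list, up to 4 members with the smallest p plus those called. Other genes were picked after seeing their values. The members and the 36 gene lists were chosen with earlier results of these data known. Alternatives covered the pseudocount, the filter, scaling, the libraries in the fit, a replicate block, the moderation and left-out libraries. The fit with HS_AOS 1 and control 2 set aside was added after seeing the data. Promoter windows come from RefSeq (GRCm38.p6) and coordinates from GENCODE M21.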

Additional observations from a re-analysis of the deposited data

Results flagged for a closer look

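Kap was picked out because its interaction term passed the test. Kap was near 0 in every group but control, so the term cannot tell whether the effect of AOS differs with diet and STZ. The interaction on the log2(FPKM + 1) scale, HS_AOS minus HS set against AOS minus control, was 3.63 (limma, Benjamini-Hochberg adjusted p = 0.00195). Kap stood at 0.15, 0 and 0.15 FPKM in HS_AOS, 0.31, 0.31 and 1.67 FPKM in HS, 0 in all 3 AOS libraries, and 13.3, 20.1 and 21.0 FPKM in control. With HS already near 0, AOS had no room to lower Kap further under diet and STZ, and Kap passed the filter on low values through the control libraries and HS 3 alone. With a pseudocount of 0.1 the interaction had no called gene. With a mean of at least 5 required it had none either, but Kap lies below that mean and was not tested there.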

How the results depend on the processing

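Of the 12 genes called in HS_AOS against control, Kap was called in all 15 alternatives that tested it and Nr1d1 in 15 of 16. Cyp1b1 was called in 3 of 16, Plin2 in 4 and Klf10 in 6. None of the 12 changed direction. The count was 5 with the groups of the contrast alone, 7 with HS_AOS 1, HS 1 and control 1 set aside, and 2 to 126 with 1 library left out, the highest without control 3. It was 6 higher and 6 lower in the main setting, 3 and 6 with median ratio scaling, 4 and 6 with quantile normalization, 6 and 4 with a mean of at least 5, and 5 and 9 with no filter. HS_AOS against HS, with 0 calls, had 1 (Zfp979) with its groups alone, 5 with the 3 libraries set aside, and 0 to 3 with 1 library left out. HS_AOS against AOS, with 5 calls, had 1 with no filter, 12 with a mean of at least 5, with median ratio scaling and with quantile normalization, 8 with its groups alone, 3 with the 3 libraries set aside, 2 with HS_AOS 1 and control 2 set aside, and 1 to 5 with 1 library left out. The interaction, with 1 call, had 0 with a pseudocount of 0.1 and 0 with a mean of at least 5, a filter that Kap does not pass. It had 2 with median ratio scaling, 3 with HS_AOS 1 and control 2 set aside, and 1 to 8 with 1 library left out, the highest without control 2. The cause of these shifts was not tested. With the replicate number as a block the counts were 7 for HS_AOS against control and 3 for HS_AOS against AOS. The numbers share no stated origin, and deviations of same-numbered HS_AOS and control libraries correlated at 0.168, 0.0633 and 0.142. Among single genes, 80 values missed the threshold where the main one passed and 18 passed where it had missed, all in the same direction. Absolute depth is unknown, which limits what can be said of genes near 0 such as Kap, Prm1 and Tnp1.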

Other observations

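Some genes outside the lists were singled out after their values were seen. Npy, which encodes the peptide neuropeptide Y, was at 12.7, 11.7 and 9.31 FPKM in HS_AOS libraries and was listed at 0 in all 3 control libraries. HS libraries had 0.17, 6.61 and 1.18 FPKM of Npy and AOS libraries 0.34, 0.17 and 10.9 FPKM, so single libraries of both groups reached the HS_AOS range or came near it. Npy was not called in the fit over all groups (limma, Benjamini-Hochberg adjusted p = 0.363) and was called when HS_AOS and control were fitted alone.

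Zfp979, a zinc finger gene, ran the other way. It was at 0.03, 0.03 and 0.09 FPKM in HS_AOS libraries, against 5.64, 3.74 and 9.17 FPKM in control libraries (log2 change -2.70, limma, Benjamini-Hochberg adjusted p = 0.301). HS libraries had 9.20, 5.54 and 9.30 FPKM and AOS libraries 0.20, 7.53 and 0.66 FPKM. The values of Zfp979 are thus either near 0 or at several FPKM within 1 group. Orm1, an acute phase plasma protein gene, had 1.32, 0.69 and 0.66 FPKM in HS_AOS libraries, against 9.93, 9.38 and 3.45 FPKM in control libraries (log2 change -2.09, adjusted p = 0.159). Tpm1 and Tpm2, which encode the actin-binding tropomyosins, had changes of -0.34 (adjusted p = 0.17) and -0.54 (adjusted p = 0.154), on the same side as Acta2 and Tagln.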
